A study of Mus musculus with 11 samples.

Results

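The loss of rods was examined in retinas of rd10 mice that received no drug, by setting 3 rd10 saline libraries against 2 wild-type saline libraries, which are 5 of the 11 libraries of the study. The wild-type mice were of the strain C57Bl/6J. The rd10 mice are labelled B6.CXB1-Pde6brd10/Jrd10 on a C57Bl/6J background and carry a mutant allele of Pde6b, which encodes a catalytic subunit of the rod cGMP phosphodiesterase. Both groups received saline by intraperitoneal injection each day from postnatal day (PN) 9, and the right retina was taken at PN24, so the injections are common to both groups. The other 6 libraries came from mice of both genotypes given the LSD1 inhibitor GSK2879552 at 4.2 mg/kg on the same days, and they entered the filter on low counts, the scaling and the estimate of the spread between animals. Each library is 1 retina of 1 animal.

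In rods, light switches on the G protein transducin, and transducin switches on the phosphodiesterase, which removes cGMP and lets the cation channels of the outer segment close. When the phosphodiesterase is defective, cGMP and calcium stay high and the rods die, and cones are lost later. Müller glia, which span the retina, and microglia, its resident macrophages, are known to react to dying rods, and the comparison shows the state of all of these cells at 1 age.

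The counts are of polyA RNA per gene, and levels are given as CPM, a gene's counts relative to the size of its library, with libraries scaled by TMM (trimmed mean of M values). A gene is said to have risen or fallen where edgeR's quasi-likelihood F-test gave a Benjamini-Hochberg adjusted p under 0.05 over all 17099 genes tested. Changes are log2 fold changes, rd10 minus wild type, with the standard error after ±. Levels are listed in replicate order. The 5 libraries held 19657030 to 24105895 counts. Wild-type saline replicate 2 carried lens transcripts, with 747 CPM summed over the lens genes against 4.69 to 17.9 CPM in the other 4 libraries. Xist, the RNA that silences 1 X chromosome in female cells, was at 0.0462 CPM in rd10 saline replicate 2 and at 784 to 1335 CPM in the other 4, and Y-linked genes, counted only in replicate 2 of the 5, are not described. Transcripts of the muscle list summed to 6.46 CPM at most and those of the pigment epithelium list to 474 to 642 CPM. Keratin and keratocyte genes of the cornea (Krt12, Krt5, Krt14, Lum and Kera) and T cell, B cell and neutrophil genes such as Cd3e, Cd79a and Ly6g were too rare to be tested.

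Of the 3 rd10 retinas, replicate 1 stood apart in a small set of genes. By a rule chosen after the values were seen, 17 genes lay within 2 times the wild-type maximum in rd10 saline replicate 1 and at least 5 times higher in both other rd10 saline libraries. The same rule with replicate 2 or replicate 3 as the low library found 0 genes each. Summed over the 17 genes, the level was 47.3 to 64.2 CPM in the 5 wild-type libraries and rd10 saline replicate 1, and 448 to 780 CPM in the remaining 5 rd10 libraries, drug-treated ones included. Fbln1, which encodes the matrix protein fibulin-1, stood at 2.63 and 2.68 CPM in wild type and 3.89, 230.3 and 182 CPM in rd10 saline. Optc, encoding opticin, a matrix protein of the vitreous, stood at 5.31 and 4.26 CPM in wild type and 5.68, 165 and 146 CPM in rd10 saline. Ltbp2, a latent TGF-beta binding protein, was at 1.48 and 1.27 CPM in wild type and 1.53, 47.4 and 46.99 CPM in rd10 saline. In all 3 genes the first rd10 retina was level with wild type and the other 2 were far above it. Of the 17 genes, 14 were called in the full comparison and all 17 without replicate 1. In the fit of the 5 saline libraries alone, Fbln1, Optc and Ltbp2 were not called (adjusted p = 0.172, 0.183 and 0.193), nor by limma-voom (adjusted p = 0.421, 0.338 and 0.417). With and without replicate 1, the changes were 5.70 and 6.27 for Fbln1, 4.46 and 5.01 for Optc, and 4.53 and 5.09 for Ltbp2. Some genes outside the 17 were also lowest in that rd10 retina and are given below with and without it.

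**Figure D1:**
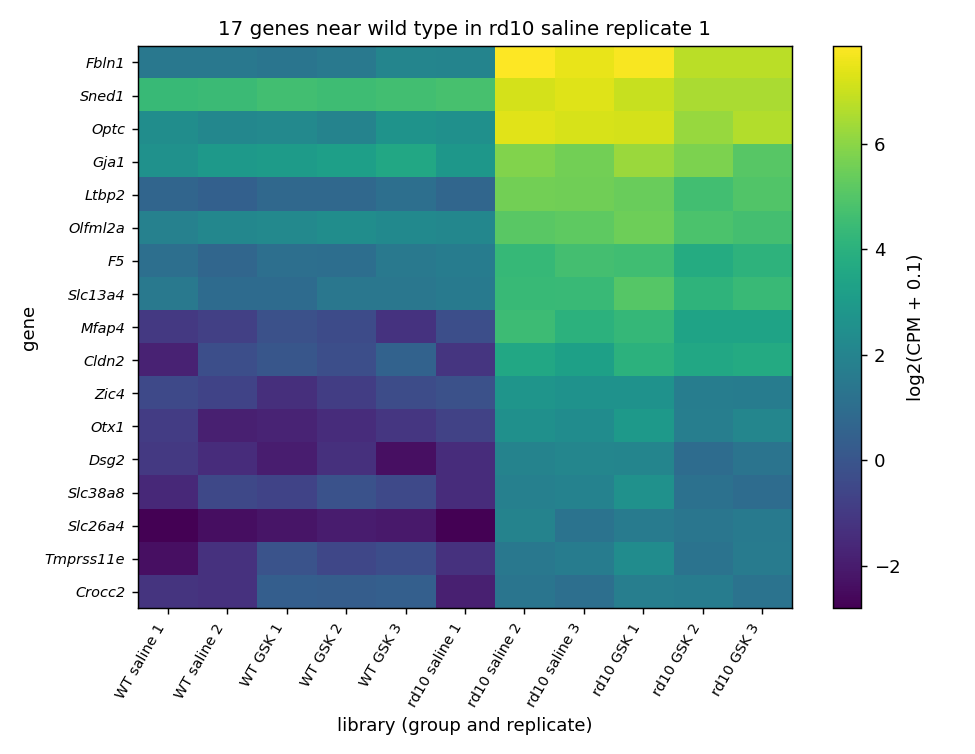
Level of the 17 genes in all 11 libraries, as log2(CPM + 0.1), with libraries in columns by group and replicate and genes in rows. Within each row, the other 5 rd10 columns are brighter than the rd10 saline replicate 1 column and the 5 wild-type columns. Genes differ in level, so shades are compared within a row.

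The promoters of 3 gene groups whose members share short sequence elements are shown first. They are RefSeq sequences of the build GRCm38.p6, not the build used for counting, each running from 250 bases before to 50 bases after the start of the gene, on the strand of the gene. Matches on either strand are in capitals. Among rod phototransduction genes, 17 had a promoter in the table, and 9 of the 17 (52.9%) held TAATCC, the core recognised by the photoreceptor factor CRX, against 7.06% of all 32851 promoters. The recognition sequence TGCTGA of the rod factor NRL was in 6 (35.3%) of them against 19.5% of all. Shown are Cngb1 (the beta subunit of the rod cGMP-gated channel, chr8:95306536-95306835 on the minus strand), Gucy2f (a guanylate cyclase that makes cGMP in photoreceptors, chrX:142196887-142197186 on the minus strand) and Sag (rod arrestin, chr1:87803430-87803729 on the plus strand).
Cngb1: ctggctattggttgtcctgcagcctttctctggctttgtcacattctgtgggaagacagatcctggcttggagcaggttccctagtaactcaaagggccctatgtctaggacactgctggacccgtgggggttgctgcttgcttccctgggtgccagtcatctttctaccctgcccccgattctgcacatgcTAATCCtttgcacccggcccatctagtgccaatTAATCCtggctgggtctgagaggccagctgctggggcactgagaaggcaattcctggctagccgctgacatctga
Gucy2f: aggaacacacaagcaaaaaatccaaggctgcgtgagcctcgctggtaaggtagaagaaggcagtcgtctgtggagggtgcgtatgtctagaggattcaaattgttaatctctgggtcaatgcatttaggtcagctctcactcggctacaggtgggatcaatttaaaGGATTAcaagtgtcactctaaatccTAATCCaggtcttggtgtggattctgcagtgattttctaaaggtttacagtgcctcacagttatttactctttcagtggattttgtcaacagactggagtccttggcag
Sag: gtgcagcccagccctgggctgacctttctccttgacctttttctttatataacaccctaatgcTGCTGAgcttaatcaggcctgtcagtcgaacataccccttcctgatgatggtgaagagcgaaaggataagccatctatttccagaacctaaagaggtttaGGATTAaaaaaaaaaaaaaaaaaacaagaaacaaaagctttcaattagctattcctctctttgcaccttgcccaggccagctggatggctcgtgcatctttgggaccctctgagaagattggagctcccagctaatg

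Interferon-stimulated genes had 28 promoters in the table, and 15 of these (53.6%) held the core of the interferon-stimulated response element, which is GAAA, any 2 bases, then GAAA again, against 3.44% of all promoters. Over all genes that were called and at least 4-fold higher in rd10, the share was 14.1%, and among genes that were not called it was 2.54%. Shown are Isg15, a ubiquitin-like protein attached to other proteins (chr4:156200769-156201068 on the minus strand, 3 matches), Ifit1, which binds viral RNA (chr19:34640639-34640938 on the plus strand, 2 matches), and Bst2, the membrane protein tetherin (chr8:71537423-71537722 on the minus strand, 2 matches).
Isg15: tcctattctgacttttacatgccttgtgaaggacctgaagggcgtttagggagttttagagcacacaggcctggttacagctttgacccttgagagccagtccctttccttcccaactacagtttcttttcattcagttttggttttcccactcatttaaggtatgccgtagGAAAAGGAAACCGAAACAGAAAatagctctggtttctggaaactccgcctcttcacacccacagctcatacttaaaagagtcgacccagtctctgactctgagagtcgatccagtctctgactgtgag
Ifit1: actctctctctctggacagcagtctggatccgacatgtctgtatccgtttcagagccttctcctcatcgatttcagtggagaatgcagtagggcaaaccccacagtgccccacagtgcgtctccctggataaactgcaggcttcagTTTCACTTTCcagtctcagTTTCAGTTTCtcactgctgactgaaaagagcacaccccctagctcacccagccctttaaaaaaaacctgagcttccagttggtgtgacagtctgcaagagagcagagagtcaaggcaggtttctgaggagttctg
Bst2: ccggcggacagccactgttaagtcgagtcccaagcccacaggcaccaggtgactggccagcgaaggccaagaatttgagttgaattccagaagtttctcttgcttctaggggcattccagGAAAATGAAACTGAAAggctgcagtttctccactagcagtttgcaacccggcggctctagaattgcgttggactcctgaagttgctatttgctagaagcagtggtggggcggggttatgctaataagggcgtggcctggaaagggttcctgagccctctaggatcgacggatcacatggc

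Cell division genes had 28 promoters in the table, and 13 (46.4%) held TTTGAA, the cell cycle genes homology region (CHR), against 17.9% of all. The share was 17.6% over all genes called and at least 4-fold higher in rd10 and 22.6% over those at least 4-fold lower. Among genes that were not called it was 11.8%. Top2a, the topoisomerase that untangles replicated DNA, had 2 matches (chr11:99024140-99024439 on the minus strand), as did Cdk1, the kinase that starts mitosis (chr10:69352863-69353162 on the minus strand). A match in these windows is a description of letters and no evidence of binding.
Top2a: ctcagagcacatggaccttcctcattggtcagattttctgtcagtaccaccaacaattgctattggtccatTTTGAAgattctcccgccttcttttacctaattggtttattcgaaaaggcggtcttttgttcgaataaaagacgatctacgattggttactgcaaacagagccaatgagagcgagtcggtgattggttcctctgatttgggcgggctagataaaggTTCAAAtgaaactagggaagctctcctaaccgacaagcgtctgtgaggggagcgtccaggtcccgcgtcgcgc
Cdk1: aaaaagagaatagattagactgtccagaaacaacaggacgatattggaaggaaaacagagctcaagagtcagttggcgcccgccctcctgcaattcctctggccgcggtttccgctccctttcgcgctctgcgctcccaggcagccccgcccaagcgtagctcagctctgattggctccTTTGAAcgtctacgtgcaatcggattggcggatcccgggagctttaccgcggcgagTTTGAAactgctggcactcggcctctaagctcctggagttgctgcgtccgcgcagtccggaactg

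Across all genes, 6919 of 17099 (40.5%) differed between the saline groups, 3669 (21.5%) higher and 3250 (19.0%) lower in rd10. These shares are the background against which each gene group is read. Many of the changes were small: 49.8% of the called genes moved by less than 1.5-fold, and the median over all tested genes was 0.02. Large rises outnumbered large falls. At least 4-fold, 694 genes (4.06%) were higher and 149 (0.871%) lower. Values of the groups did not overlap for 10637 genes (62.2%). The count of calls fell to 4435 without wild-type saline replicate 1, to 4441 without replicate 2 and to 4081 without the lens-bearing libraries (wild-type saline replicate 2 and rd10 GSK replicate 2). When libraries were scaled on inner retinal genes instead, 2694 genes were higher and 4297 lower. That scaling moved the median over all tested genes from 0.02 to -0.07, and it turned the sign of 5 list medians near 0, those for cGMP kinase, calpain and PARP, the clock, p53 targets, ribosomal proteins and the retinoid cycle. Under it 9 rather than 16 trophic and endothelin genes were higher, 10 rather than 6 genes of the LSD1, HDAC and REST complexes lower, 5 rather than 8 heat shock genes higher, 2 rather than 5 clock genes higher, and 5 rather than 3 cone genes and ganglion cell genes each lower.

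The share of genes that fell was highest among the most counted genes. Among 2418 genes with a mean of 100 CPM or more, 811 (33.5%) fell and 420 (17.4%) rose. Among 4228 genes between 1 and 10 CPM, 390 (9.22%) fell and 1152 (27.2%) rose, and among 2183 genes under 1 CPM 116 (5.31%) fell and 302 (13.8%) rose. The 20 most counted genes of wild type held 11.5% of wild-type counts and 4.80% of rd10 counts. The 694 genes that rose at least 4-fold went from 0.163% to 1.61%, while transcripts of the mitochondrial genome held 2.61% and 2.59%. In the plot of count shares by library, the 3 rd10 retinas lie close to each other and apart from both wild-type retinas in every set except the mitochondrial one.

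**Figure D2:**
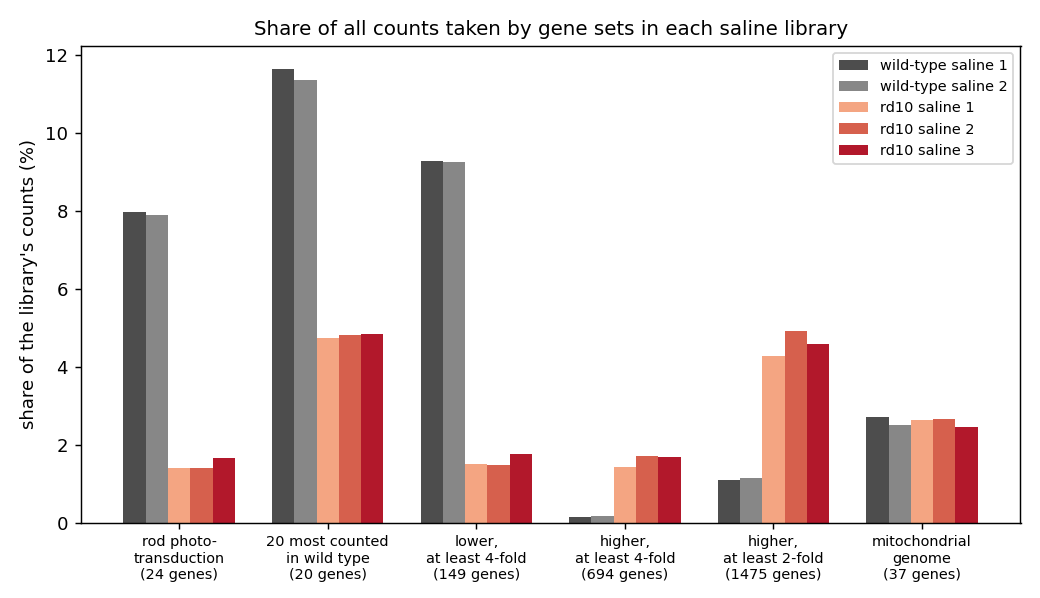
Share of each saline library's counts (%, bars, 1 bar per library) taken by 6 gene sets; the sets "lower" and "higher" were chosen in the same comparison and are a description. Rod phototransduction genes held 7.97% and 7.89% of the counts in wild type and 1.40%, 1.41% and 1.66% in rd10, and mitochondrial transcripts held between 2.46% and 2.71% in every library.

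**Figure D3:**
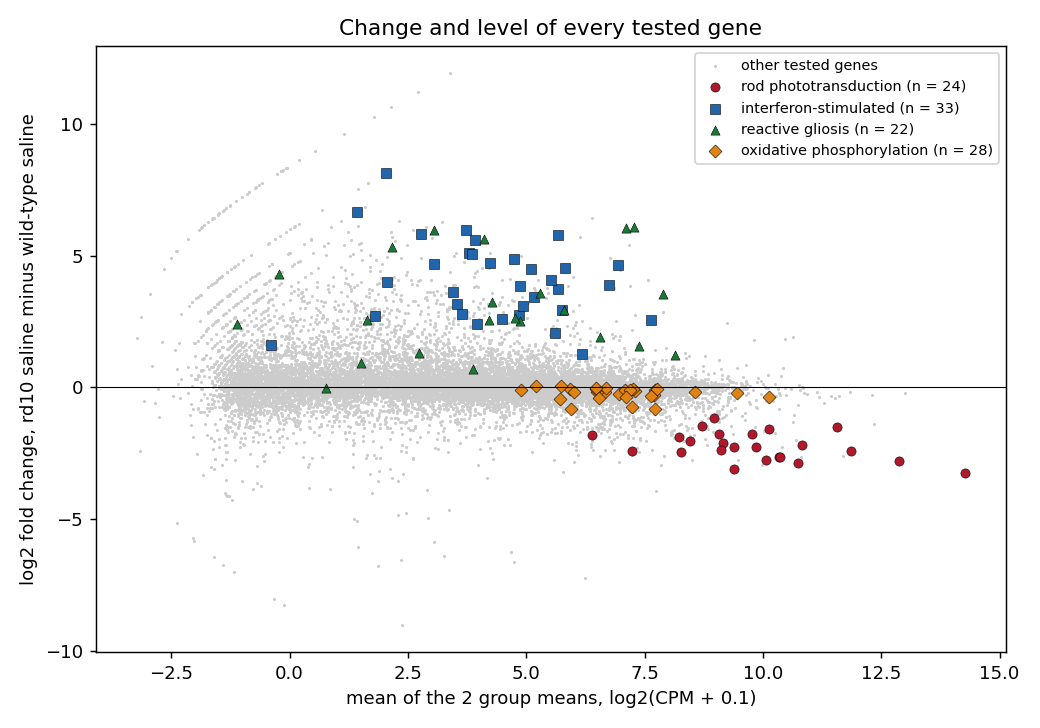
Each point is a tested gene, placed by its level (x axis, log2(CPM + 0.1) of the mean of the group means) and its log2 fold change in rd10 saline (y axis). The 24 rod phototransduction genes (circles) lie at the right and below 0, the 33 interferon-stimulated genes (squares) and most of the 22 reactive gliosis genes (triangles) above 0, and the 28 oxidative phosphorylation genes (diamonds) close to 0.

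Pde6b, the mutated gene, was counted at 2231 and 2301 CPM in wild type and 332, 333 and 422 CPM in rd10 (-2.64 ± 0.20, adjusted p = 1.07e-05). A count per gene does not read the mutation, so this level does not by itself tell the alleles apart. Its partner subunits fell alongside it. Pde6a, the other catalytic subunit, was at 2975 and 2972 CPM in wild type and 653, 551 and 752 CPM in rd10 (-2.19 ± 0.18, adjusted p = 1.67e-05), and Pde6g, the inhibitory subunit, fell by 2.65 ± 0.20. For all 3 subunits the rd10 retinas lay far below both wild-type retinas, with replicate 3 the highest of them.

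All 24 rod phototransduction genes fell, by a median of 2.28, where 19.0% of tested genes fell, and the count was 24 in each of the leave-one-out and scaling alternatives. In all 24 every rd10 retina was below both wild-type ones, as in 29.7% of all genes. At the median member, rd10 replicates 1, 2 and 3 stood at 20.1%, 18.8% and 24.4% of the wild-type level. Gnat1, the alpha subunit of rod transducin, was at 13605 and 12759 CPM in wild type and 1711, 1772 and 2158 CPM in rd10 (-2.81 ± 0.22, adjusted p = 1.85e-05). In these bulk retinas, fewer rods and less RNA per rod cannot be told apart. The members fell unequally. Guca1b, an activator of the cyclase that remakes cGMP, fell by 3.09 ± 0.16 and Gnb5, a subunit of the complex that ends the transducin signal, least (from 715 and 680.1 CPM to 295, 322 and 308 CPM, -1.18 ± 0.23, adjusted p = 0.00317). Sag, the rod arrestin, which ends the response to light, fell by 1.5 ± 0.17, and Rgs9, which ends transducin signalling, by 1.48 ± 0.30. Cnga1 and Cngb1, the channel subunits, fell by 2.37 ± 0.22 and 2.05 ± 0.21, and Slc24a1, the exchanger that pumps calcium out of the outer segment, by 2.75 ± 0.23.

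Transcription factors of photoreceptors fell to unequal degrees. Of 16 fate factors 13 fell and 0 rose (median -0.82). Nrl, which commits precursors to the rod fate, was at 1781 and 1787 CPM in wild type and 211, 214 and 261 CPM in rd10 (-2.96 ± 0.29, adjusted p = 9.85e-05). Esrrb, a nuclear receptor needed for rod survival, fell by 2.77 ± 0.24 and Nr2e3, which represses cone genes in rods, by 1.98 ± 0.33. Crx, active in rods and cones, kept more of its level, with 1340.3 and 1369 CPM in wild type and 478, 456 and 496 CPM in rd10 (-1.51 ± 0.14, adjusted p = 2.18e-05), and Otx2, which is also made by bipolar cells, the most of these, with 220.2 and 225 CPM in wild type and 159, 158 and 165 CPM in rd10 (-0.47 ± 0.07, adjusted p = 0.000472). Mef2c, a factor that acts on photoreceptor genes, fell by 2.14 ± 0.23.

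The outer segment and its supply fell with the cascade. Of 16 genes of disc and matrix structure 15 fell (median -1.89), 13 of them at least 2-fold. Prph2, the peripherin that shapes disc rims, was at 5713 and 5574 CPM in wild type and 876, 915 and 1024 CPM in rd10 (-2.59 ± 0.19, adjusted p = 8.73e-06), and its partner Rom1 fell by 2.25 ± 0.19. Fscn2, an actin bundler of the outer segment, fell by 2.83 ± 0.29. Reep6, which serves membrane traffic in rods, fell by 2.77 ± 0.24. Impg2, a proteoglycan of the matrix around the outer segments, fell less, from 699 and 669 to 398, 304 and 397 CPM (-0.90 ± 0.15, adjusted p = 0.00111). Of 28 cilium and ciliopathy genes 20 fell and 0 rose (median -0.60), among them Bbs5, a subunit of the ciliary cargo complex BBSome, by 1.55 ± 0.10. Unc119, which carries lipid-anchored proteins to the outer segment, fell by 1.66 ± 0.16.

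The rod terminal also lost transcripts, with 16 of 21 ribbon synapse genes lower and 2 higher (median -0.87). Cabp4, a calcium sensor of the presynaptic channel, was at 171 and 166 CPM in wild type and 41.3, 44.7 and 50.7 CPM in rd10 (-1.89 ± 0.17, adjusted p = 3.92e-05), and Cplx4, a complexin of ribbon terminals, fell by 1.55 ± 0.11. Dag1, the dystroglycan whose ligand aligns the synapse and which glia also make, went the other way, from 115 and 106 to 177, 153 and 174 CPM (0.60 ± 0.11, adjusted p = 0.00126). The other member that rose, Bsn, a scaffold of active zones in many neurons (0.50 ± 0.15, adjusted p = 0.0231), was no longer called without either wild-type library (adjusted p = 0.0734 without replicate 1 and 0.145 without replicate 2). Of 23 genes for ion balance and fuel in photoreceptors, 17 fell and 3 rose (median -1.16). Kcnv2, a potassium channel subunit of the inner segment, fell by 2.19 ± 0.18 and Nxnl1, whose short product is a factor that rods release to sustain cones, by 2.95 ± 0.22. Elovl4, which makes very long chain fatty acids, fell by 1.40 ± 0.10 and Adipor1, a receptor that supports docosahexaenoic acid in the retina, by 1.51 ± 0.09. Of those that rose, Atp1b3, a sodium pump subunit, was at 78.4 and 72.9 CPM in wild type and 154, 199 and 165 CPM in rd10 (1.19 ± 0.15, adjusted p = 0.000192), and Mfsd2a, a transporter of the same fatty acid, at 3.06 and 3.51 CPM in wild type and 6.77, 7.52 and 6.57 CPM in rd10 (1.08 ± 0.23, adjusted p = 0.00290). The third was Bsg, the lactate transporter partner basigin (0.24 ± 0.07, adjusted p = 0.0178), which was no longer called without either wild-type library (adjusted p = 0.0839 without replicate 1 and 0.111 without replicate 2).

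Outside the lists, the largest falls among genes with at least 5 CPM on average included several of other roles. Pdzph1 was at 394 and 403 CPM in wild type and 25.3, 21.2 and 31.8 CPM in rd10 (-3.93 ± 0.18, adjusted p = 7.02e-07), and Plpp2, a lipid phosphate phosphatase, at 98.9 and 97.5 CPM in wild type and 9.74, 11.2 and 10.6 CPM in rd10 (-3.22 ± 0.37, adjusted p = 0.000320). Nt5e, the ecto-nucleotidase CD73 that marks rod precursors and makes adenosine, was at 226 and 213 CPM in wild type and 30.7, 26.7 and 34.4 CPM in rd10 (-2.84 ± 0.22, adjusted p = 2.06e-05). All 3 were picked by a rule that required no overlap between the groups, so their separation is not an added result.

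Cone transcripts did not move as a group. Of 16 cone genes 1 rose and 3 fell (median -0.17), and the per-library medians were 89.5%, 81.6% and 89.6% of wild type. Among those that fell, Grk1 and Guca1a (changes of -1.57 and -1.87) are also counted in the rod phototransduction list. Arr3, cone arrestin, was at 142 and 167 CPM in wild type and 145, 165 and 166 CPM in rd10, which overlap (95% interval of the log2 fold change -0.58 to 0.66). The cone opsin Opn1mw was at 191 and 192 CPM in wild type and 122, 130.1 and 125 CPM in rd10 and missed the threshold (adjusted p = 0.0553), and Opn1sw, the short-wave opsin, was at 563 and 450.0 CPM in wild type and 179, 346 and 369.9 CPM in rd10, with an interval of -1.69 to 0.16. Both opsins were lower in every rd10 retina than in either wild-type one, as were 29.7% of all tested genes, and neither passed the test. Pde6h and Cnga3, the cone forms of the phosphodiesterase inhibitor and the channel, had intervals of -0.31 to 0.10 and -0.15 to 0.18. Gnb3, a transducin subunit of cones that ON bipolar cells also make, rose from 349 and 367 to 707, 761 and 709 CPM (1.02 ± 0.19, adjusted p = 0.00218).

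Inner neurons were close to wild type, with modest rises in bipolar genes. Of 25 bipolar genes 12 rose and 1 fell (median 0.19), none by 2-fold, where 8.63% of all genes rose at least 2-fold, and per-library medians were 113% to 114% of wild type. Without the lens-bearing libraries the number that rose was 7. Grik1, a glutamate receptor of OFF bipolar cells, was at 129.8 and 132 CPM in wild type and 204, 195 and 182 CPM in rd10 (0.56 ± 0.10, adjusted p = 0.000866), and Trpm1, the channel of ON bipolar cells, rose by 0.45 ± 0.09. The bipolar factor Sebox was the member that fell (-0.25 ± 0.09, adjusted p = 0.0380), a call lost without either wild-type saline library (adjusted p = 0.264 and 0.0580). A scaling on inner retinal genes assumes these genes constant, so the small shifts of bipolar, amacrine and ganglion genes are relative to the scaling used.

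Amacrine, horizontal and ganglion cell genes mostly did not pass the test, where 21.5% of all tested genes rose and 19.0% fell. Of 23 amacrine genes 7 rose and 1 fell (median 0.14), and 3 rose without either wild-type library. Cck, a neuropeptide, was at 9.00 and 9.79 CPM in wild type and 15.7, 15.8 and 13.4 CPM in rd10 (0.67 ± 0.12, adjusted p = 0.000831), while Chat, of cholinergic amacrine cells, had an interval of -0.28 to 0.05 and Calb2 one of -0.21 to 0.10. Among 10 horizontal cell genes 2 rose and 1 fell, with 1 and 0 rising without wild-type replicates 1 and 2. Of the 2 that rose, 1 rose at least 2-fold. Ndrg1, which is also responsive to hypoxia, was the one that fell (340.0 and 349 CPM in wild type and 196, 233 and 227 CPM in rd10, -0.65 ± 0.11, adjusted p = 0.000559). Of 15 ganglion cell genes 3 fell (median -0.04), a share close to that of all genes, and 1 fell without either wild-type library. Among the 3 was Nefh, the heavy neurofilament (197 and 191 CPM in wild type and 146, 147 and 139 CPM in rd10, -0.43 ± 0.05, adjusted p = 0.000107), while Rbpms and Pou4f1 had intervals of -0.15 to 0.21 and -0.11 to 0.24. The abundant neuronal genes Syt1 and Snap25, for synaptic vesicle release, had intervals of -0.18 to 0.12 and -0.24 to 0.03, and Slc12a5, the neuronal chloride exporter, -0.04 to 0.29.

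**Figure D4:**
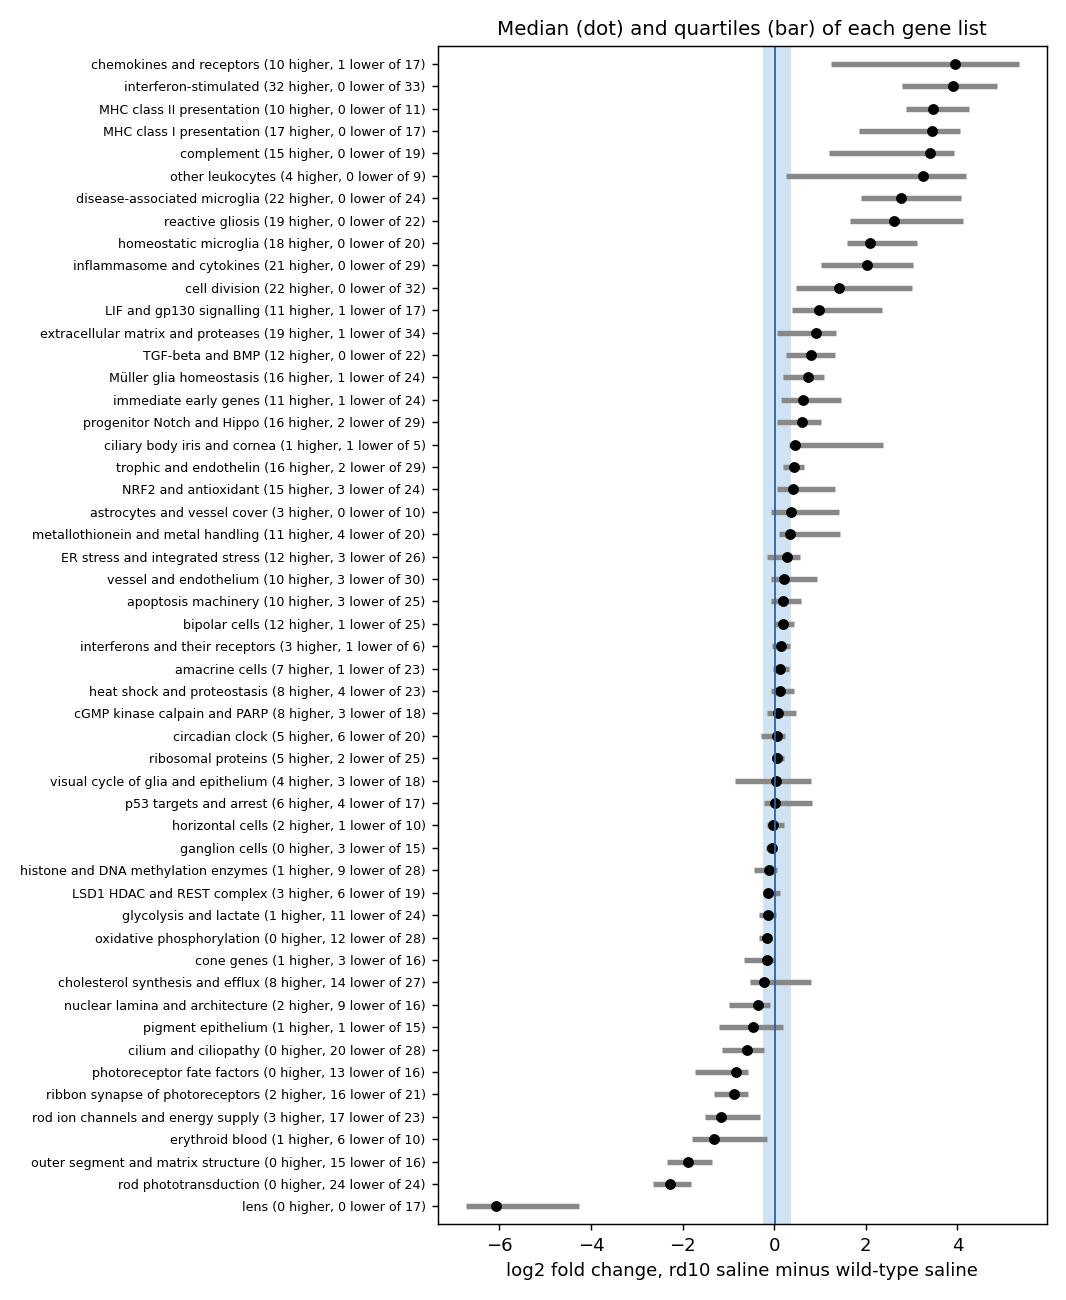
Median log2 fold change (dot) and quartiles (bar) of each gene list with at least 5 tested members, with the members called higher and lower in brackets. The blue line and band are the median and quartiles of all tested genes. Lists of rods lie at the bottom, inner neurons within the band and immune lists at the top. The lens list has a low median, its transcripts were high in wild-type saline replicate 2, and none of its members was called.

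Most Müller glia genes of the list rose, while others, some of them defining genes, did not pass the test. Of 24 homeostasis genes 16 rose and 1 fell (median 0.73), and each rd10 retina stood at 165% of wild type at the median member. Cp, the copper-carrying ferroxidase ceruloplasmin, was at 189 and 191 CPM in wild type and 1060.3, 909.5 and 1117 CPM in rd10 (2.44 ± 0.42, adjusted p = 0.00258). Clu, the chaperone clusterin, was at 621 and 609.9 CPM in wild type and 1995, 2574 and 2046 CPM in rd10 (1.84 ± 0.25, adjusted p = 0.000415), and Apoe, the lipid carrier, at 641 and 678 CPM in wild type and 2101, 3069 and 2341 CPM in rd10 (1.92 ± 0.14, adjusted p = 3.93e-06). The channels and transporters Aqp4, Kcnj10 and Slc1a3, for water, potassium and glutamate, rose by 0.97 ± 0.09, 0.81 ± 0.13 and 0.81 ± 0.13. Other defining genes of the same cells did not pass. Glul, glutamine synthetase, was at 3190.0 and 2990.2 CPM in wild type and 2376, 2528 and 2469 CPM in rd10, with an interval of -1.13 to 0.47, and Rlbp1, the retinal-binding protein CRALBP, had an interval of -0.34 to 0.35. Rlbp1 overlapped between the groups and Glul was lower in every rd10 retina, as were 29.7% of all tested genes. The interval of Glul reaches beyond a 2-fold fall, so a held level is not shown. The member that fell was Spc25, at 143 and 122 CPM in wild type and 46.2, 43.8 and 48.1 CPM in rd10 (-1.53 ± 0.37, adjusted p = 0.0127, and 0.0688 without wild-type saline replicate 1).

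Reactive gliosis genes rose by more. Of 22 members 19 rose and 0 fell (median 2.61), and 12 and 11 rose without wild-type saline replicates 1 and 2. Gfap, the intermediate filament of reactive glia, was at 40.3 and 34.3 CPM in wild type and 479.8, 471 and 368 CPM in rd10 (3.56 ± 0.40, adjusted p = 0.000281). Serpina3n, an acute-phase protease inhibitor, was at 4.83 and 4.17 CPM in wild type and 289.9, 351 and 268 CPM in rd10 (6.07 ± 0.69, adjusted p = 0.000378), and Lcn2, the iron-binding lipocalin, at 3.83 and 4.44 CPM in wild type and 262, 207 and 344 CPM in rd10 (6.03 ± 1.17, adjusted p = 0.00533). In each of these every rd10 retina was above both wild-type ones, as in 32.5% of all tested genes. Serpina3n and Lcn2 were also picked among the largest rises by a rule that required this. Cebpd, a transcription factor of the acute-phase response, rose by 3.59 ± 0.42. Cd44, a receptor for hyaluronan, rose by 2.92 ± 0.54. Nes, the filament nestin, did not pass (interval -0.18 to 1.58). S100a6, a calcium-binding protein, and Crym, which binds thyroid hormone, are in none of the lists. S100a6 rose by 4.10 ± 0.67, and Crym was at 56.9 and 59.4 CPM in wild type and 449.9, 453 and 351 CPM in rd10 (2.84 ± 0.45, adjusted p = 0.00167).

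The list for the gp130 receptor pathway, through which LIF protects photoreceptors, shares Stat3, Socs3 and Osmr with the reactive gliosis list. Most tested genes of the pathway rose. Of 17 members 11 rose and 1 fell (median 0.98), with 6 rising without either wild-type library. Lif itself was at 0.861 and 0.835 CPM in wild type and 5.85, 3.23 and 3.98 CPM in rd10 and did not pass (adjusted p = 0.159). Stat3, the transcription factor of the pathway, was at 86.3 and 81.8 CPM in wild type and 265, 248 and 236 CPM in rd10 (1.57 ± 0.18, adjusted p = 0.000149). Il6st, which encodes gp130, rose by 0.67 ± 0.14, whereas Lifr, its partner receptor, fell (-0.37 ± 0.11, adjusted p = 0.0226, and 0.174 without wild-type saline replicate 1). Socs3, the feedback inhibitor of the pathway, was at 3.16 and 4.13 CPM in wild type and 40.1, 35.7 and 28.4 CPM in rd10 (3.25 ± 0.70, adjusted p = 0.00810, but adjusted p = 0.0636 and 0.0516 without wild-type replicates 1 and 2). Among 29 trophic and endothelin genes 16 rose and 2 fell (median 0.43), and 8 and 9 rose without wild-type replicates 1 and 2. Edn2, an endothelin that injured photoreceptors make, was at 1.05 and 1.05 CPM in wild type and 33.4, 41.95 and 34.4 CPM in rd10 (5.11 ± 0.56, adjusted p = 0.000183). Igfbp2, which binds insulin-like growth factors, rose by 1.68 ± 0.18 and Fgfr1, a receptor of fibroblast growth factors, by 1.29 ± 0.11, whereas Fgf1 fell (-0.45 ± 0.08, adjusted p = 0.00127). Fgf2 was at 5.12 and 5.67 CPM in wild type and 38.2, 20.5 and 35.3 CPM in rd10 (2.54 ± 0.44, adjusted p = 0.00231). Its antisense neighbour Fgf2os rose too (5.39 ± 0.60), and since the strand setting of the counting is not given in the sources used here, reads of the 2 genes may be mixed.

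**Figure D5:**
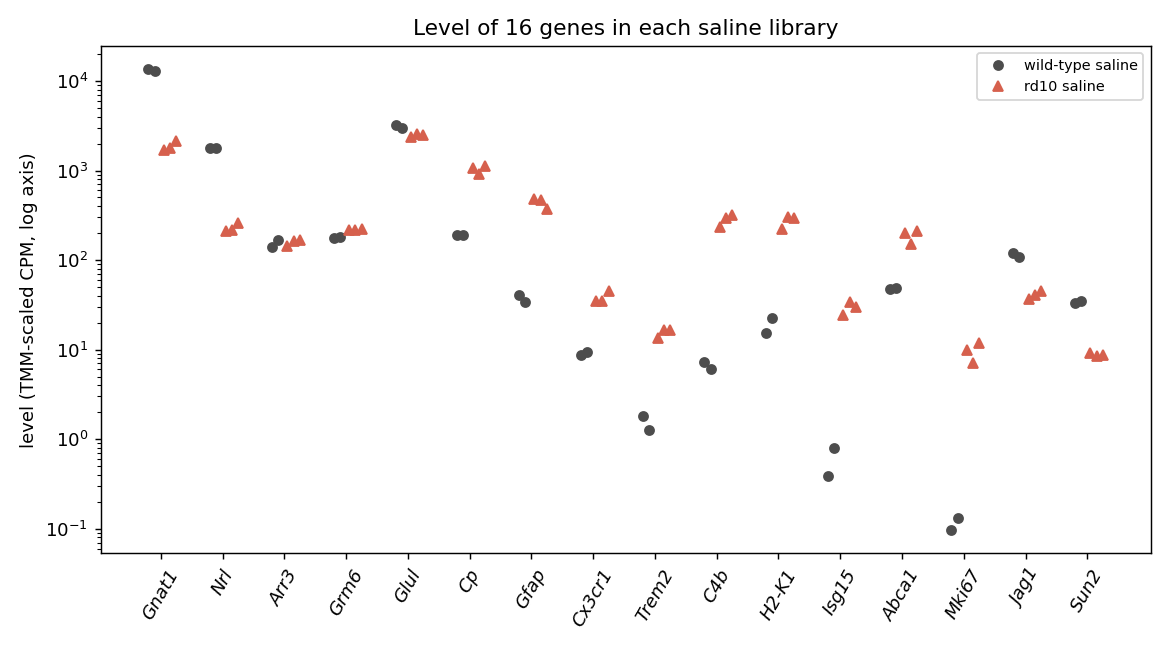
Level of 16 genes in each saline library (CPM, log axis), with circles for the 2 wild-type and triangles for the 3 rd10 retinas. Rod genes (Gnat1, Nrl) lie lower in rd10, the cone gene Arr3 overlaps, and glial and immune genes such as Gfap, C4b and Isg15 lie higher.

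Microglial genes rose as a group, both those of the resting and those of the activated state. Of 20 homeostatic microglia genes 18 rose and 0 fell (median 2.09), and of 24 disease-associated genes 22 rose (median 2.76), or 14 without wild-type saline replicate 1. Cx3cr1, the fractalkine receptor, was at 8.71 and 9.44 CPM in wild type and 34.6, 34.6 and 45.05 CPM in rd10 (2.07 ± 0.35, adjusted p = 0.00162), and Tmem119, a marker of resident microglia, at 2.87 and 2.59 CPM in wild type and 10.3, 12.7 and 9.90 CPM in rd10 (2.01 ± 0.24, adjusted p = 6.65e-05). P2ry12, the purine receptor that activated microglia lower, was at 5.74 and 4.57 CPM in wild type and 8.43, 9.65 and 10.4 CPM in rd10 (0.88 ± 0.26, adjusted p = 0.0170, and 0.145 without wild-type saline replicate 2). Trem2, the lipid receptor of the activated state, rose more, to 13.6, 16.4 and 16.4 CPM from 1.82 and 1.27 CPM (3.32 ± 0.29, adjusted p = 9.55e-06). The lysosomal genes Cd68 and Ctsd, the latter for cathepsin D, rose by 4.35 ± 0.82 and 1.81 ± 0.14. Cst7, a cystatin typical of disease-associated microglia, was at 0 and 0.0439 CPM in wild type and 4.72, 4.75 and 6.25 CPM in rd10, so its wild-type level rests on almost no reads. Clec7a, the beta-glucan receptor dectin-1, was at 0.670 and 0.571 CPM in wild type and 15.98, 16.02 and 18.6 CPM in rd10 (4.76 ± 0.90, adjusted p = 0.00357).

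Complement genes rose, from the initiating complex to a receptor for its products. Of 19 genes 15 rose and 0 fell (median 3.41). C1qa, of the initiating complex, was at 7.47 and 7.25 CPM in wild type and 73.1, 84.4 and 76.6 CPM in rd10 (3.41 ± 0.31, adjusted p = 5.40e-05), and C4b at 7.23 and 6.15 CPM in wild type and 231, 298 and 315 CPM in rd10 (5.40 ± 0.38, adjusted p = 2.09e-05). C3, on which all routes converge, was at 2.11 and 1.80 CPM in wild type and 147, 146 and 206 CPM in rd10 (6.41 ± 1.22, adjusted p = 0.00493), and its receptor C3ar1 at 0.335 and 0.264 CPM in wild type and 14.3, 15.04 and 17.2 CPM in rd10 (5.68 ± 0.98, adjusted p = 0.00217). The inhibitor Serping1 rose by 4.91 ± 0.47. For each of these genes the rd10 retinas lay closer to each other than to either wild-type retina. C3 was no longer called without the lens-bearing libraries (adjusted p = 0.0568).

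Antigen presentation rose for both classes, class II less evenly between retinas. All 17 MHC class I genes rose (median 3.44), and 10 of 11 class II genes (median 3.48). B2m, the light chain of class I, was at 19.6 and 23.1 CPM in wild type and 274, 416 and 396 CPM in rd10 (4.08 ± 0.65, adjusted p = 0.00193), and H2-K1, a heavy chain with close relatives, at 15.2 and 22.6 CPM in wild type and 219, 306 and 293 CPM in rd10 (3.85 ± 0.49, adjusted p = 0.000611). For class II, the rd10 replicates stood at 434%, 656% and 776% of wild type at the median member. H2-Aa, a class II chain, was at 0.144 and 0.220 CPM in wild type and 4.58, 14.4 and 16.5 CPM in rd10 (5.97 ± 1.20, adjusted p = 0.00453), and Cd74, the invariant chain, at 0.479 and 0.922 CPM in wild type and 9.34, 30.5 and 36.04 CPM in rd10 (5.15 ± 1.25, adjusted p = 0.0134). Replicate 1 was the lowest rd10 retina for both, though above wild type. Without it the changes were 6.35 and 5.54. Cd74 lost its call without wild-type saline replicate 1 or 2 (adjusted p = 0.0907 and 0.0747), and with limma-voom 6 class II genes were called.

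Interferon-stimulated genes rose by far more than the receptors of interferon. Of 33 stimulated genes 32 rose and 0 fell (median 3.89), and in all 33 every rd10 retina was above both wild-type ones, as in 32.5% of all genes. Irf7, which amplifies the response, was at 6.56 and 7.82 CPM in wild type and 70.1, 111 and 104 CPM in rd10 (3.72 ± 0.51, adjusted p = 0.000800). Isg15 and Ifit1, whose promoters are shown above, were at 0.383 and 0.791 and 1.63 and 1.93 CPM in wild type and at 24.1, 33.9 and 29.6 CPM and 95.1, 105 and 99.3 CPM in rd10. Both were called by edgeR (adjusted p = 0.00425 and 0.00317) but not by limma-voom (adjusted p = 0.0760 and 0.0577). The interferon genes Ifnb1, Ifng, Ifna4 and Ifnl2 had too few counts to be tested. Of the 6 tested genes of receptors and their kinases 3 rose and 1 fell (median 0.14), but 1 rose without wild-type saline replicate 2, and 0 fell without either wild-type library. Ifnar1, a chain of the type I receptor, was at 66.7 and 60.6 CPM in wild type and 63.2, 60.9 and 66.4 CPM in rd10, with an interval of -0.17 to 0.17. The other chain, Ifnar2, was at 4.36 and 6.06 CPM in wild type and 11.7, 13.7 and 13.6 CPM in rd10 (1.31 ± 0.22, adjusted p = 0.000668). Stat2 rose by 1.27 ± 0.24 and Irf9 by 2.93 ± 0.47, both parts of the factor that binds the element.

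Cytokine and sensor genes were less certain than the interferon response. Of 29 inflammasome and cytokine genes 21 rose (median 2.02), or 12 without wild-type saline replicate 1. Tlr7, an endosomal sensor of RNA, was at 0.287 and 0.176 CPM in wild type and 6.37, 6.05 and 7.43 CPM in rd10 (4.82 ± 0.49, adjusted p = 2.56e-05). Casp1, the inflammasome caspase, was at 0.0957 and 0.0439 CPM in wild type and 2.93, 3.42 and 3.45 CPM in rd10, and Gsdmd, the pore former it cuts, at 0.909 and 0.922 CPM in wild type and 3.23, 3.97 and 3.98 CPM in rd10 (2.02 ± 0.35, adjusted p = 0.000839). Il1b, the cytokine that this caspase matures, was at 0.393, 0.277 and 0.487 CPM in rd10, and Tnf at 0.480, 0.277 and 0.406 CPM, and neither passed (adjusted p = 0.155 and 0.151). Of 17 chemokine and receptor genes 10 rose and 1 fell, but only 3 rose without either wild-type library. Ccl2, which draws monocytes, was at 0 and 0.0878 CPM in wild type and 2.01, 1.80 and 3.69 CPM in rd10 (adjusted p = 0.127), and Ccr2, its receptor, at 0 and 0.0439 CPM in wild type and 4.37, 4.89 and 8.89 CPM in rd10 (adjusted p = 0.0534). Both were near 0 in wild type, and neither passed. Every rd10 retina was higher than both wild-type ones, as in 32.5% of all tested genes. Cxcl12, which retains cells in tissue, fell (44.2 and 34.7 CPM in wild type and 20.8, 22.2 and 23.7 CPM in rd10, -0.83 ± 0.13, adjusted p = 0.000393). Tnfaip3, which ends NF-kB signalling and is in none of the lists, also fell, from 338 and 336 to 62.9, 57.97 and 75.2 CPM (-2.37 ± 0.19, adjusted p = 2.08e-05). Of 9 tested genes of other leukocytes 4 rose, or 1 when wild-type saline replicate 1 or the lens-bearing pair was left out, and 13 more were too rare to test.

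Genes of cell death moved in both directions, where 21.5% of all tested genes rose and 19.0% fell, with a median of 0.02. Of 25 apoptosis genes 10 rose and 3 fell (median 0.19), with 5 and 6 rising without wild-type replicates 1 and 2 and 1 falling without replicate 1. Fas, a death receptor, was at 0.383 and 0.571 CPM in wild type and 2.88, 2.77 and 2.35 CPM in rd10 (2.46 ± 0.47, adjusted p = 0.00150), and Casp12, a caspase of the endoplasmic reticulum, at 0.383 and 0.527 CPM in wild type and 2.75, 3.00 and 2.68 CPM in rd10 (2.61 ± 0.25, adjusted p = 1.71e-05). Xiap, which inhibits caspases, was at 604 and 572 CPM in wild type and 259, 209.7 and 266 CPM in rd10 (-1.26 ± 0.12, adjusted p = 2.09e-05). Mlkl and Ripk3, which carry out necroptosis, were at 1.92, 1.62 and 2.15 and 0.480, 0.415 and 0.649 CPM in rd10 and 0.144 and 0.307 and 0.0479 and 0.0878 CPM in wild type. Of 18 genes around cGMP kinase, calpain and PARP, which have been linked to rod death, 8 rose and 3 fell (median 0.08), and 2 rose without either wild-type library, while 1 fell without replicate 2. Capn2, a calpain, rose (0.64 ± 0.14, adjusted p = 0.00502), whereas Parp1 had an interval of -0.18 to 0.23. Among 17 p53 targets and arrest genes 6 rose and 4 fell, with 2 falling without either wild-type library. Cdkn1a, the arrest gene p21, was at 5.31 and 5.05 CPM in wild type and 12.2, 9.05 and 10.8 CPM in rd10 (1.04 ± 0.14, adjusted p = 0.000133) and Gadd45a, of the damage response, at 30.2 and 31.7 CPM in wild type and 19.7, 16.98 and 16.3 CPM in rd10 (-0.81 ± 0.12, adjusted p = 0.000300), in opposite directions.

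Stress programmes were mixed, where 21.5% of all tested genes rose and 19.0% fell. Of 26 genes of the ER and integrated stress responses 12 rose and 3 fell (median 0.28). The number that fell was 1 without wild-type saline replicate 1 and 5 without rd10 saline replicate 3, and with inner retina scaling 8 rose and 6 fell. Atf4, their central factor, was at 255 and 243 CPM in wild type and 177, 189.7 and 182 CPM in rd10 (-0.44 ± 0.05, adjusted p = 8.50e-05), while its target Chac1 rose by 1.48 ± 0.24, and Ddit3 and Xbp1 had intervals of -0.35 to 0.00 and -0.13 to 0.32. Of 23 heat shock and proteostasis genes 8 rose and 4 fell, and 3 rose without either wild-type library. Among those that fell, Hspa1a, an inducible chaperone, was at 26.04 and 21.7 CPM in wild type and 7.20, 9.00 and 8.64 CPM in rd10 (-1.52 ± 0.12, adjusted p = 5.43e-06), and Hspa1b, a near-identical copy whose reads may be shared, fell by 1.51 ± 0.17. Hsp90aa1, an abundant chaperone, fell from 1170.4 and 1150.2 to 712, 658 and 723 CPM (-0.73 ± 0.08, adjusted p = 2.64e-05). The other member that fell was Ubb, a ubiquitin gene (-0.23 ± 0.07, adjusted p = 0.0240), which was not called without wild-type saline replicate 1 (adjusted p = 0.227) or rd10 saline replicates 1 and 3 (adjusted p = 0.0552 and 0.0694). Lamp2, a lysosomal membrane protein, rose by 1.06 ± 0.18.

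Antioxidant and metal genes leaned upward. Of 24 antioxidant genes 15 rose and 3 fell (median 0.40), and 9 rose without wild-type saline replicate 2, while 0 and 1 fell without wild-type replicates 1 and 2. Hmox1, which degrades heme, was at 3.16 and 2.90 CPM in wild type and 20.3, 18.05 and 18.7 CPM in rd10 (2.65 ± 0.46, adjusted p = 0.00182), and Prdx6, a peroxiredoxin, at 119 and 111 CPM in wild type and 319.8, 320.0 and 273 CPM in rd10 (1.41 ± 0.08, adjusted p = 7.02e-07). Gpx3, a secreted glutathione peroxidase, was at 6.13 and 6.50 CPM in wild type and 13.7, 96.8 and 65.7 CPM in rd10 (3.22 ± 0.80, adjusted p = 0.0154), with replicate 1 far below the other rd10 retinas. Without that replicate its change was 3.67, and without wild-type replicates 1 and 2 it was not called (adjusted p = 0.0897 and 0.0881). Of 20 metal-handling genes 11 rose and 4 fell (median 0.34), with 2 falling without wild-type saline replicate 1. The metallothioneins Mt1 and Mt2 rose by 2.25 ± 0.18 and 3.12 ± 0.26. Iron genes differed in direction: Tfrc, the transferrin receptor for iron uptake, was at 178 and 197 CPM in wild type and 100.2, 92.9 and 113 CPM in rd10 (-0.88 ± 0.11, adjusted p = 8.89e-05), while Trf, transferrin, was at 1.10 and 2.02 CPM in wild type and 7.12, 9.69 and 5.40 CPM in rd10 (2.23 ± 0.38, adjusted p = 0.00102) and Ftl1, the storage protein ferritin light chain, at 75.4 and 71.8 CPM in wild type and 149.8, 159 and 143 CPM in rd10 (1.03 ± 0.12, adjusted p = 7.30e-05).

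Energy genes fell in part. Of 24 glycolysis and lactate genes 11 fell and 1 rose (median -0.14), with 6 falling without wild-type saline replicate 1. Pfkfb2, which makes an activator of phosphofructokinase, was at 513 and 520.0 CPM in wild type and 121, 107 and 151 CPM in rd10 (-2.03 ± 0.22, adjusted p = 0.000153), and Hk2, a hexokinase enriched in photoreceptors, at 425 and 399 CPM in wild type and 130.2, 111 and 152 CPM in rd10 (-1.65 ± 0.23, adjusted p = 0.000512). Ldha, which makes lactate, fell by 0.79 ± 0.08 and Pkm, pyruvate kinase, by 0.61 ± 0.08, while Eno1, an enolase, had an interval of -0.06 to 0.25. Of 28 oxidative phosphorylation genes 12 fell and 0 rose (median -0.16). That count was 7 without wild-type saline replicate 1 and 21 without rd10 saline replicate 2. Ppargc1a, a coactivator of mitochondrial genes, was at 80.3 and 75.2 CPM in wild type and 45.4, 38.95 and 48.9 CPM in rd10 (-0.81 ± 0.14, adjusted p = 0.00141).

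Of 27 cholesterol genes 8 rose and 14 fell (median -0.22). Grouped by role after their values were seen, 12 of 12 genes of synthesis, its regulation and uptake fell, 5 of 9 genes of efflux and lipid carriage rose and 0 fell, and of the other 6 genes 3 rose and 2 fell. The factor Srebf1, which could also be counted under regulation, was left among those 6 and was not called. The split by role therefore depends on the grouping. Sqle, squalene epoxidase, was at 68.5 and 69.7 CPM in wild type and 50.6, 48.97 and 47.3 CPM in rd10 (-0.50 ± 0.07, adjusted p = 0.000190). Idi1 and Fdft1, earlier and middle steps, fell by 0.83 ± 0.13 and 0.54 ± 0.09. The 2 groups did not overlap for these 3 enzymes, as for 62.2% of all tested genes. Abca1, which exports cholesterol to lipoproteins, was at 47.3 and 49.1 CPM in wild type and 199, 152 and 209.8 CPM in rd10 (1.96 ± 0.15, adjusted p = 7.37e-06), Apod, a lipid-carrying lipocalin, at 2.11 and 2.42 CPM in wild type and 7.99, 11.3 and 8.16 CPM in rd10 (2.01 ± 0.20, adjusted p = 1.97e-05), and Lcat, which esterifies cholesterol on lipoproteins, at 1.58 and 2.11 CPM in wild type and 5.68, 7.34 and 4.95 CPM in rd10 (1.69 ± 0.26, adjusted p = 0.000422). Npc2, which moves cholesterol out of lysosomes, rose by 1.21 ± 0.13. Nr1h3, the sterol sensor LXR alpha, did not pass (interval 0.00 to 1.29). Ppara, a nuclear receptor of fatty acid oxidation, was at 17.6 and 16.7 CPM in wild type and 2.79, 2.22 and 4.34 CPM in rd10 (-2.45 ± 0.22, adjusted p = 1.55e-05).

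Cell division genes rose from very low levels. Of 32 members 22 rose and 0 fell (median 1.42), or 14 without wild-type saline replicate 1. Mki67, present only in cycling cells, was at 0.0957 and 0.132 CPM in wild type and 9.78, 7.11 and 11.8 CPM in rd10 (adjusted p = 0.00153). Top2a and Cdk1, with the CHR matches shown above, were at 0.191 and 0.307 CPM in wild type and 7.68, 6.69 and 9.42 CPM in rd10, and at 0.287 and 0.220 CPM in wild type and 2.93, 2.77 and 1.95 CPM in rd10. Each rd10 retina was above both wild-type retinas in all 3, as in 32.5% of all tested genes. Mki67 was also picked among the largest rises by a rule that required this. Cdk1 passed in edgeR with adjusted p = 0.000925, and Top2a with 0.00599, which became 0.0548 without wild-type saline replicate 1. Pcna, a replication clamp also used in repair, was not called, with an interval of -0.21 to 0.08. Which cells divided cannot be read from whole retina.

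Progenitor and Hippo genes rose while a Notch ligand and target fell. Of 29 members 16 rose and 2 fell (median 0.62). Jag1, a Notch ligand, was at 121 and 109.5 CPM in wild type and 36.4, 40.6 and 45.05 CPM in rd10 (-1.5 ± 0.15, adjusted p = 3.69e-05), and Hes5, a Notch target, at 5.93 and 4.74 CPM in wild type and 2.01, 2.03 and 1.99 CPM in rd10 (-1.41 ± 0.30, adjusted p = 0.00349). The receptor Notch1 was at 50.6 and 51.9 CPM in wild type and 115, 106 and 117 CPM in rd10 (1.13 ± 0.18, adjusted p = 0.000828). Yap1, the Hippo effector, rose by 1.01 ± 0.16, its target Ccn2 by 1.48 ± 0.23, and Nfib, a factor of late progenitors and Müller glia, by 1.30 ± 0.12. Sox2, which progenitors and Müller glia share, rose by 0.62 ± 0.10.

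Matrix and TGF-beta genes rose in part through genes that were low in rd10 saline replicate 1. Of 34 matrix and protease genes 19 rose and 1 fell (median 0.91), or 12 without wild-type saline replicate 1, and of 22 TGF-beta and BMP genes 12 rose (median 0.81), or 5 and 6 without wild-type replicates 1 and 2. Fn1, fibronectin, was at 79.2 and 80.7 CPM in wild type and 212, 157 and 201 CPM in rd10 (1.25 ± 0.26, adjusted p = 0.00566), with the 3 rd10 retinas alike. Vcan, the proteoglycan versican, was at 3.59 and 3.65 CPM in wild type and 8.16, 42.8 and 47.4 CPM in rd10 (3.18 ± 0.76, adjusted p = 0.0122), and Ltbp1, which holds latent TGF-beta, at 8.38 and 9.18 CPM in wild type and 13.8, 34.8 and 36.97 CPM in rd10 (1.70 ± 0.42, adjusted p = 0.0127). In both, replicate 1 was much closer to wild type than replicates 2 and 3, and without it the changes were 3.63 and 2.02. Both lost their call without wild-type replicate 1 (adjusted p = 0.0769 and 0.0818) and without replicate 2 (adjusted p = 0.0779 and 0.0693).

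Vessel genes had no common shift, where 21.5% of all tested genes rose and 19.0% fell. Of 30 members 10 rose and 3 fell (median 0.22). Kdr, the VEGF receptor, was at 269 and 269.6 CPM in wild type and 651, 552 and 617 CPM in rd10 (1.17 ± 0.14, adjusted p = 8.60e-05), and Vwf, von Willebrand factor, at 19.4 and 22.8 CPM in wild type and 61.6, 56.4 and 65.01 CPM in rd10 (1.53 ± 0.21, adjusted p = 0.000379). Vcam1 and Icam1, which bind leukocytes, rose by 2.52 ± 0.50 and 3.28 ± 0.68. Apln, the ligand apelin, was at 4.40 and 3.38 CPM in wild type and 1.00, 0.738 and 1.18 CPM in rd10 (-1.99 ± 0.34, adjusted p = 0.000813). Cldn5 and Pecam1, which define endothelial cells, did not pass, with intervals of -0.41 to 0.05 and -0.24 to 0.12. Of 10 erythroid genes 1 rose and 6 fell. Among those that fell was Alas2, the first enzyme of heme synthesis in red cells (3.88 and 4.92 CPM in wild type and 1.14, 1.38 and 1.18 CPM in rd10, -1.83 ± 0.29, adjusted p = 0.000478). The part of blood left in the tissue in the vessel results was not tested.

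Of 18 genes of the retinoid cycle 4 rose and 3 fell (median 0.04), shares close to those of all genes, and 2 rose without either wild-type library and 1 without the lens-bearing libraries. Rbp3, which carries retinoids between rods and their neighbours, was at 7672 and 7454 CPM in wild type and 2998, 2618 and 3063 CPM in rd10 (-1.39 ± 0.08, adjusted p = 7.07e-07). Aldh1a1, which makes retinoic acid, was at 46.9 and 55.5 CPM in wild type and 182, 223 and 194 CPM in rd10 (1.97 ± 0.26, adjusted p = 0.000511). Rpe65, the isomerase of the pigment epithelium, was at 8.57 and 21.96 CPM in wild type and 2.75, 6.00 and 2.76 CPM in rd10, highest in wild-type replicate 2, and did not pass (adjusted p = 0.0934). Aqp1, which is not part of the cycle, a water channel that photoreceptors and ciliary epithelium make, was at 135 and 137 CPM in wild type and 26.9, 25.01 and 32.5 CPM in rd10 (-2.27 ± 0.26, adjusted p = 0.000211).

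Kdm1a, which encodes LSD1, the target of the drug used elsewhere in the study, was at 95.96 and 95.1 CPM in wild type and 88.9, 86.3 and 83.2 CPM in rd10. It did not pass (-0.15 ± 0.06, adjusted p = 0.0725). Every rd10 retina was below both wild-type ones, as in 29.7% of all tested genes. Hdac1, a deacetylase of the same complexes, was at 36.04 and 37.6 CPM in wild type and 42.96, 44.5 and 44.6 CPM in rd10 (0.26 ± 0.08, adjusted p = 0.0198, and 0.102 without the lens-bearing libraries). Of 19 genes of the LSD1, HDAC and REST complexes 3 rose and 6 fell (median -0.13), where 21.5% of all tested genes rose and 19.0% fell. Fewer of the 19 fell without either wild-type library. Rest, the repressor of neuronal genes, rose (26.99 and 27.1 CPM in wild type and 43.01, 36.00 and 42.00 CPM in rd10, 0.58 ± 0.09, adjusted p = 0.000309), and Sin3a, a corepressor scaffold, fell (-0.51 ± 0.06, adjusted p = 0.000100). Of 28 histone and DNA methylation enzymes 9 fell and 1 rose (median -0.12). Kdm4c, a demethylase of histone H3, was at 221 and 209 CPM in wild type and 93.1, 84.9 and 104 CPM in rd10 (-1.20 ± 0.09, adjusted p = 3.18e-06), Kdm5b, another, fell by 0.92 ± 0.11, and Tet3, which oxidises methylated cytosine, by 0.85 ± 0.13. Ezh2, the Polycomb methyltransferase, did not pass (interval -0.01 to 0.36).

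Rod nuclei of mice pack their heterochromatin in the centre, away from the lamina, and genes of nuclear architecture fell here. Of 16 members 9 fell and 2 rose (median -0.35). Sun2, which links lamina and cytoskeleton, was at 33.1 and 34.9 CPM in wild type and 9.08, 8.49 and 8.68 CPM in rd10 (-1.96 ± 0.08, adjusted p = 2.67e-07), and Lmnb1, lamin B1, at 49.5 and 47.3 CPM in wild type and 24.8, 22.2 and 26.1 CPM in rd10 (-0.99 ± 0.12, adjusted p = 8.23e-05). Syne3, a partner of Sun proteins, fell by 1.19 ± 0.23. Hist1h1c, a linker histone, was at 88.8 and 144 CPM in wild type and 19.6, 19.6 and 19.8 CPM in rd10 (-2.57 ± 0.63, adjusted p = 0.0146, and 0.0816 without wild-type saline replicate 2). The 3 rd10 retinas were nearly alike for Sun2 and Hist1h1c. No value overlapped wild type for any of the 4, as for 62.2% of all tested genes. Lmna, lamin A, moved upward (0.62 ± 0.22, adjusted p = 0.0427), but was not called without either wild-type library (adjusted p = 0.138 and 0.186) or without rd10 saline replicates 1 and 2 (adjusted p = 0.101 and 0.122).

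Clock genes moved by less than 2-fold. Of 20 members 5 rose and 6 fell (median 0.07), with 3 and 2 rising without wild-type replicates 1 and 2 and 1 without the lens-bearing libraries. The time of day of collection is not given in the sources used here. Arntl, the activator BMAL1, was at 104 and 106 CPM in wild type and 58.3, 51.6 and 58.9 CPM in rd10 (-0.90 ± 0.11, adjusted p = 8.16e-05), and Cry1, a repressor, at 69.01 and 71.7 CPM in wild type and 44.2, 44.1 and 44.4 CPM in rd10 (-0.67 ± 0.08, adjusted p = 9.98e-05). Dbp, an output gene, was at 170.3 and 182 CPM in wild type and 277, 302 and 269 CPM in rd10 (0.68 ± 0.07, adjusted p = 2.03e-05), and Bhlhe40, another repressor, rose by 0.73 ± 0.15. Per2 had an interval of -0.02 to 0.46. Of 24 immediate early genes 11 rose and 1 fell (median 0.64), or 5 without wild-type saline replicate 2. Egr1, a transcription factor induced by activity and injury, was at 26.5 and 17.1 CPM in wild type and 118, 105 and 89.3 CPM in rd10 (2.26 ± 0.31, adjusted p = 0.000615), and Ier3, which dampens NF-kB, at 48.5 and 44.7 CPM in wild type and 24.5, 24.4 and 22.4 CPM in rd10 (-0.97 ± 0.15, adjusted p = 0.000570), while Dusp1 had an interval of -0.17 to 0.39. Of 25 ribosomal protein genes 5 rose and 2 fell (median 0.06), where 21.5% of all tested genes rose and 19.0% fell. Without rd10 saline replicate 2 the counts were 3 and 7.

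Not all abundant genes shifted. In 3722 tested genes (21.8%) the 95% interval lay within -0.32 and 0.32. Eef2, an elongation factor, was at 1596 and 1558 CPM in wild type and 1499, 1590.3 and 1464 CPM in rd10 and Map4, a microtubule protein, at 1308 and 1305 CPM in wild type and 1282, 1235 and 1266 CPM in rd10. The groups overlapped for Eef2, and Map4 was slightly lower in each rd10 retina. Of the 10180 genes that were not called, 3503 had such a narrow interval and 2192 had an interval reaching beyond 1, so that a 2-fold change is not excluded for the latter.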

How the data were processed

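The deposited table holds raw counts per Ensembl gene made by the authors for 37991 genes in 11 libraries. Per the labels, polyA RNA from 200 ng of total RNA (integrity number above 7) went into stranded libraries. Per the submitters' processing notes, reads were aligned with HISAT2 2.1.0 and counted with HTSeq, on the builds NCBIM37 and mm9. The HTSeq strand setting was not given in those notes, so overlapping antisense genes are uncertain, as are near-identical copies. Names came from GENCODE M21 for 32919 identifiers, and the unnamed 5072 held 0.627% of counts.

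Genes were filtered with filterByExpr (minimum count 10, total 15), leaving 17099, and scaled by TMM. Robust quasi-likelihood F-tests in edgeR 4.0.16 (R 4.3.3) used all 11 libraries with 1 coefficient per group, and the contrast was rd10 saline minus wild-type saline. P-values were adjusted by Benjamini-Hochberg over all genes tested. Intervals are 95%. DESeq2 1.42.0, limma 3.58.1, other scalings, filters and left-out libraries were alternatives, and the procedure was tested on simulated data.

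The 53 gene lists (1098 genes, 1089 matched, 1042 tested) and the members were chosen with earlier results of these data known, so lists are described by counts and medians, with no set test. Named were Pde6b, Kdm1a and Hdac1, the largest rises and falls in log2 fold change and in CPM among called genes, called members of lists and members that moved against their list, genes absent in wild type, abundant genes with a narrow interval, and defining markers that were not called. The largest rises and falls in log2 fold change were taken only among genes without overlap between the groups and with at least 5 CPM on average. Ppara, Ubb, Lamp2, the 17-gene rule and some uncalled genes quoted with an interval were chosen after their values were seen. Promoter motifs were searched on both strands as exact letters, with N as any base.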

Additional observations from a re-analysis of the deposited data

How the results depend on the processing

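The 6919 calls became 6927 with DESeq2 size factors, 6991 with scaling on inner retinal genes, 6497 with no filter on low counts, 6632 in DESeq2, 6606 in limma-voom and 6771 in a fit of the 5 saline libraries alone. The total was 4081 without the lens-bearing libraries (2003 higher and 2078 lower) and 2095 when a change of at least 2-fold was also required. Leaving out 1 library at a time gave 4435 to 7506 calls, 2195 to 3956 higher and 2203 to 3601 lower. The low end came from the 2 wild-type saline libraries: without replicate 1 there were 4435 calls (2195 higher, 2240 lower) and without replicate 2 there were 4441 (2238 higher, 2203 lower). In those fits the lone wild-type library is assumed to vary like the other groups. Inner retina scaling lowered the share of calls that were higher from 53% to 38.5%. With the replicate number as a block 6601 genes were called. Same-numbered samples of the saline groups deviated together only weakly (correlations 0.10 and 0.10 over 2 pairs), and the labels do not say that a number marks a shared litter or day, so the block is not taken as a pairing. Of the 238 genes named in the text, 181 had no change recorded in any of the 19 alternatives, and 0 called genes reversed. Recorded were the loss or reversal of a call, and an uncalled gene that passed with its sign kept. A change of sign in an uncalled gene was not recorded, nor was a gene without an adjusted p in an alternative. Most losses came without the lens-bearing libraries (32 genes), without wild-type saline replicate 1 (24) or 2 (21) and with limma-voom (20).

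With 2 wild-type retinas a change has to be large or very even to pass, and p-values rest on the spread between animals within groups that the labels give no litter or sex for. Genes with a few counts per wild-type library, such as Cst7 and Mki67, have levels that rest on single reads there.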

Other observations

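Genes next to Pde6b were counted separately. Of the 80 tested genes that are nearest to Pde6b in gene order on chromosome 5, 40 on each side, 32 (40%) were called, 20 higher and 12 lower, against 40.5% of all tested genes. Among them were Spp1, which encodes the matrix protein osteopontin (19.05 and 19.1 CPM in wild type and 112, 82.5 and 96.3 CPM in rd10, 2.35 ± 0.57, adjusted p = 0.0130), and Ptpn13, a tyrosine phosphatase (18.5 and 18.8 CPM in wild type and 40.3, 34.3 and 44.2 CPM in rd10, 1.09 ± 0.13, adjusted p = 7.65e-05). The guanylate-binding proteins Gbp4, Gbp8 and Gbp9, which interferon induces, lie in the same stretch, and Gbp9 was at 1.72 and 2.42 CPM in wild type and 32.2, 23.3 and 32.02 CPM in rd10 (3.81 ± 0.72, adjusted p = 0.00380).

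By the rule that a gene averages 0.5 CPM or less in wild-type saline and at least 10 CPM in rd10 saline, 11 genes stood out. They were Usp18, Cybb, Timp1, C3ar1, Trim30d, Zbp1, H2-Aa and Fgf2os, then Mfap4, which is 1 of the 17 genes low in rd10 saline replicate 1, and Ddx3y and Eif2s3y, which are Y-linked, came from 1 library and were not called. Usp18, which removes Isg15 from proteins, was at 0.287 and 0.527 CPM in wild type and 24.2, 28.6 and 24.9 CPM in rd10. Cybb, the catalytic subunit of the phagocyte oxidase, was at 0.383 and 0.0878 CPM in wild type and 13.4, 20.1 and 21.4 CPM in rd10. Zbp1, a sensor of Z-form nucleic acid, was at 0.191 and 0.264 CPM in wild type and 9.04, 14.03 and 16.9 CPM in rd10. The reverse rule, from at least 10 CPM to 0.5 CPM or less, was met by 5 genes. Of these, the lens genes Crygs, Cryba2 and Mip were counted in the wild-type group almost only in lens-bearing replicate 2 and were not called. Those called lower were Gm16055, at 14.1 and 15.1 CPM in wild type and 0.480, 0.369 and 0.528 CPM in rd10, and Ccl27a, a chemokine, at 8.95 and 11.8 CPM in wild type and 0.349, 0.277 and 0.487 CPM in rd10.

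Among the largest rises of count in absolute terms were lysosomal and secreted proteins. Ctsd went from 389.6 and 406 CPM in wild type to 1342, 1466 and 1390.4 CPM in rd10, Ctsb, another cathepsin, from 542 and 499 to 845, 908 and 865 CPM, and Psap, the precursor of the saposins that help degrade sphingolipids, from 918 and 939 to 1194, 1346 and 1287 CPM (0.46 ± 0.06, adjusted p = 0.000178). Dkk3, a secreted Wnt modulator made by Müller glia, went from 1024 and 1057 to 1693, 1831 and 1641 CPM (0.73 ± 0.07, adjusted p = 1.21e-05), and Sparc, a matrix-binding glycoprotein, from 578 and 557 to 944, 1091 and 1052 CPM (0.86 ± 0.11, adjusted p = 0.000124). For all 5 the rd10 retinas were above both wild-type retinas, as in 32.5% of all tested genes.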
